A study of Mus musculus with 6 samples.

Results

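The interferon regulatory factor (IRF) genes Irf1 to Irf5 and Irf7 to Irf9 were measured in cultured CT26 cells, a colon carcinoma line from BALBc mice. The 8 genes were taken by symbol, each matched 1 Ensembl identifier, and they were 8 of the 53801 genes listed. The libraries fell into 3 groups of 2: the parental line, which the study describes as bulk CT26 cells recovered from engrafted tumors, and the lines B04 and B64, each grown from a single cell and resistant to immune checkpoint blockade (ICB). B04 and B64 were also isolated from engrafted tumors. In its discussion the study places this isolation after ICB treatment. It adds that the expression changes of the clones might predate that treatment or result from it. All 3 lines carried a lentiviral DNA barcode, were grown in RPMI medium and had no treatment recorded in their sample labels. The titles speak of tumors, but in the study's methods the RNA came from cells in culture. Since B04 and B64 are 1 clone each, a difference between them and the parental line is a difference between these lines and cannot be told apart from clone-to-clone variation. Nothing says whether the duplicates, A and B, were separate cultures, so p-values measure the spread between these libraries, which may be technical.

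IRF proteins are transcription factors that share an amino-terminal DNA-binding domain, which reads the GAAA repeats of interferon-stimulated response elements (ISREs). IRF3, IRF5 and IRF7 are activated by phosphorylation downstream of sensors of foreign nucleic acid and switch on interferon genes. Secreted interferon then signals through JAK kinases and STAT proteins. IRF9 joins STAT proteins, STAT2 among them, in the complex ISGF3, which acts on ISREs, while STAT dimers act on gamma-activated sites (GAS). IRF1 and IRF2 act on overlapping elements, IRF1 as an activator and IRF2 largely as its antagonist, and IRF4 and IRF8 are best known from lymphoid and myeloid cells.

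The promoter windows of the family are shown first because several of its genes are themselves known targets of interferon. RefSeq (GRCm38.p6) gave 11 windows for all 8 genes, each 300 bases long, from 250 bases before to 50 bases after an annotated start. Both strands were searched for an ISRE written GAAANNGAAA and a GAS written TTCNNNGAA. The ISRE letters were in 1 of the 11 windows, that of Irf2, against 3.44% of 32851 windows of the same length over all genes. The GAS letters were in 3 windows, those of Irf1, Irf2 and Irf8, against 8.3% of all windows. The 4 windows below, 5′ to 3′ on the strand of each gene, are those 3 and that of Irf7, the gene with the highest level here, and capitals mark the matches.
Irf1, chr11:53769764-53770063, plus strand: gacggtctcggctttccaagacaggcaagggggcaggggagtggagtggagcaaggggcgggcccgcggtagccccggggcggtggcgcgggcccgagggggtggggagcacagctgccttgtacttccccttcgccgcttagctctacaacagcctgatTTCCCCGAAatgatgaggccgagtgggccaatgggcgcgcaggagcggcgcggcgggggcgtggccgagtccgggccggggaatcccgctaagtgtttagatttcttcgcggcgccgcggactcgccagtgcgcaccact
Irf2, chr8:46739495-46739794, plus strand: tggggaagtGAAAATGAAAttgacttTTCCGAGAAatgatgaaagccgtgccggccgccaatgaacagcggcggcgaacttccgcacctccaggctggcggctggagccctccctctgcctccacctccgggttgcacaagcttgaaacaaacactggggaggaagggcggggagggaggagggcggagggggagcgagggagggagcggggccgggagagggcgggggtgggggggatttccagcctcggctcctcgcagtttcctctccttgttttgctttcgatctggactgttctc
Irf8, chr8:120736108-120736407, plus strand: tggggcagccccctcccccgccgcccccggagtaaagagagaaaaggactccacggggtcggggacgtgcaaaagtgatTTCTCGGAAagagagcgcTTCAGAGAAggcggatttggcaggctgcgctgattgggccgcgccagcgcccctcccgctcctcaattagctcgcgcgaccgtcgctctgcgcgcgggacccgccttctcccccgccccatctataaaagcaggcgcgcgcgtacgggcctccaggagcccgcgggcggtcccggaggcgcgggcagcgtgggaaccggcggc
Irf7, chr7:141266375-141266674, minus strand: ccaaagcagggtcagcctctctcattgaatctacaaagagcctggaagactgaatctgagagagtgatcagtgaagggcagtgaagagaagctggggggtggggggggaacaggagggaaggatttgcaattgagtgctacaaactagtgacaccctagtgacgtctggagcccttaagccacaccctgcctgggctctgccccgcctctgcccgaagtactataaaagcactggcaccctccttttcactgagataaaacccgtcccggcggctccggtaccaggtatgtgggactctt
Counted from the start, the first base of the match lay at -90 in Irf1, at -241 (ISRE) and -224 (GAS) in Irf2, and at -171 and -153 in Irf8, and no match overlapped another. A match is a description of letters only, and the window of Irf7 merely lacks these letters.

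Each library held between 19409204 and 23472012 expected counts (1.21-fold apart), and duplicates differed by more than sampling noise (chi-square per degree of freedom 5.09 to 6.81, against 24.83 to 38.69 between lines). Fragment length, read as RSEM length minus effective length, was 271.8 to 277.3 bases in both parental libraries and B04 A. It was 220.8 to 246.2 bases in B04 B and both B64 libraries, so no parental library shared a class with B64. Only B04 had a library in each class. Fits blocked on this class therefore take the class term from B04 A and B04 B alone. They compare B04 with the parental line through B04 A only, and B64 with the parental line only by way of that pair. Of 9 leukocyte markers, 6 had at most 3 counts in every library, with Ptprc at 0.01 TPM or less and Cd3e at 0. The summed level of the 9 was 10.46 to 12.16 TPM in parental and B04 libraries and 36.70 to 40.31 TPM in B64, nearly all from Cd68. Of the colon epithelial markers, Epcam and Cdh1 were at 0.06 TPM or less and Vil1 was at 0, while Krt18 and Krt20 were present (the list summed to 22.38 to 25.42 TPM in parental and B04 libraries and 45.70 to 48.04 TPM in B64), and the mesenchymal marker Vim reached 2041.67 TPM or more in every library.

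Within the family, Irf7 had the highest length-scaled level in all 6 libraries and Irf4 the lowest. Levels between genes are given as TPM, a transcript abundance scaled by gene length and library total. The TPM of Irf7 was 42.98 and 41.84 in parental A and B, 35.55 and 30.33 in B04, and 102.42 and 97.58 in B64. Next came Irf9, Irf3, Irf2 and Irf1, at 9.87 to 31.55 TPM, followed in every library by Irf8 at 1.08 to 2.89, Irf5 at 0.33 to 2.03 and Irf4 at 0.01 to 0.19 TPM. The order of the middle genes differed between lines: Irf9 was above Irf3 in B64 and below it in B04, and the 2 overlapped in the parental line. Irf1 and Irf2 overlapped in TPM in the parental line and in B04, and Irf2 was the higher in both B64 libraries. The 8 genes summed to 124.1 and 113.8 TPM in the parental line, 117.7 and 114.9 in B04, and 195.7 and 192.4 in B64. Irf7 made up 52.3% and 50.7% of that sum in B64, against 26.4% to 36.8% in the other 4 libraries.

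**Figure D1:**
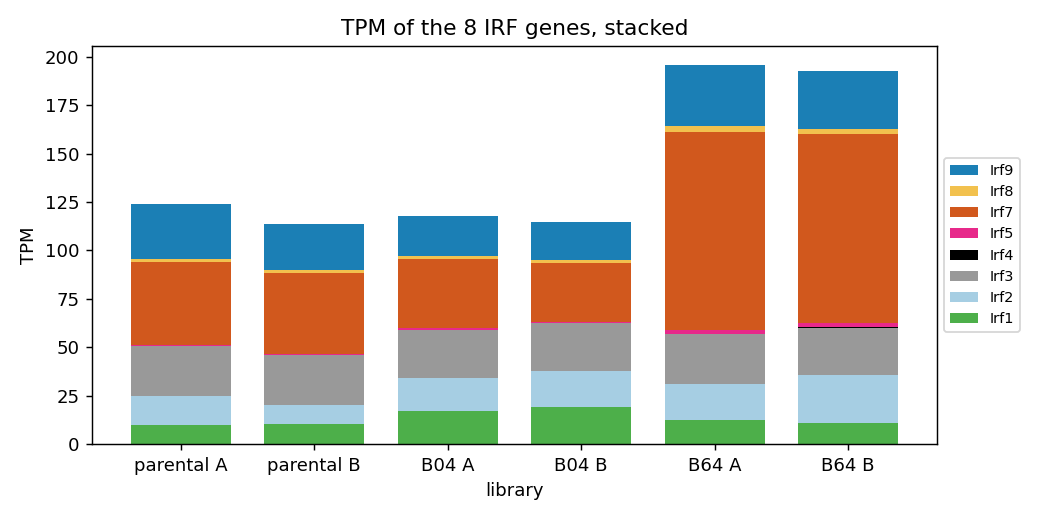
Stacked bars give the TPM of the 8 IRF genes in each of the 6 libraries (y axis, TPM on a linear scale; x axis, library). The B64 bars reach 195.7 and 192.4 TPM against 113.8 to 124.1 in the others, and the Irf7 segment is the tallest in all 6.

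Counts were next compared between lines, to ask how the transcription of each resistant clone differed from the parental line and how the clones differed from each other. Of the 8 genes, 3 passed the test in B04 against the parental line (1 higher, 2 lower), 3 in B64 against the parental line (all higher), and 4 in B64 against B04 (3 higher, 1 lower). Calls were made with DESeq2 over all genes at an adjusted p under 0.05. Over all genes tested, 24.1% were called in B04 against parental (11.2% higher, 12.9% lower), 16.3% in B64 against parental (8.87% higher, 7.45% lower), and 24.3% in B64 against B04 (13.1% higher, 11.1% lower). Both comparisons with the parental line used the same 2 parental libraries. Irf7, Irf8 and Stat2 had been singled out by the study in these same libraries, so their differences here are not independent evidence. Irf2, Irf3 and Irf4 were called in none of the 3 comparisons.

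**Figure D2:**
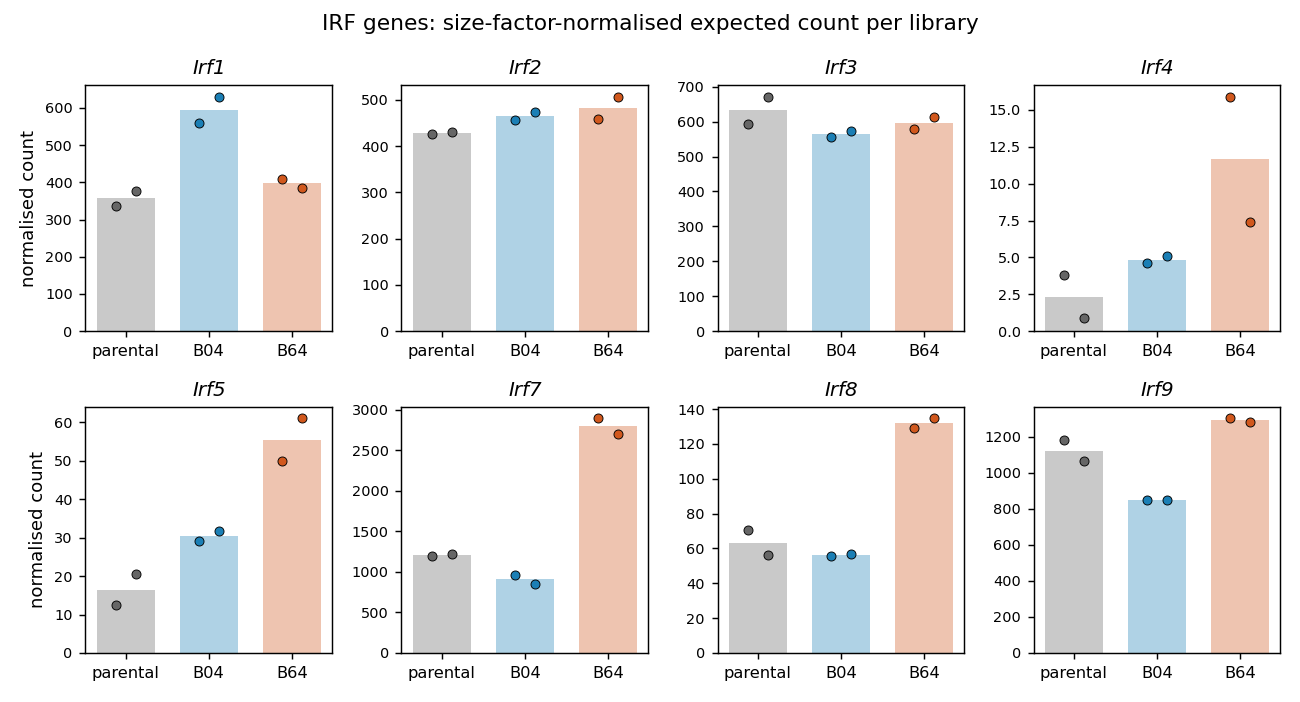
Size-factor-normalised expected counts of each IRF gene (y axis, own linear scale from 0 in each panel), with 1 point per library and a bar at the mean of 2. The B64 points of Irf7, Irf8 and Irf5 lie above all others, and the B04 points of Irf1 lie above all others.

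**Figure D3:**
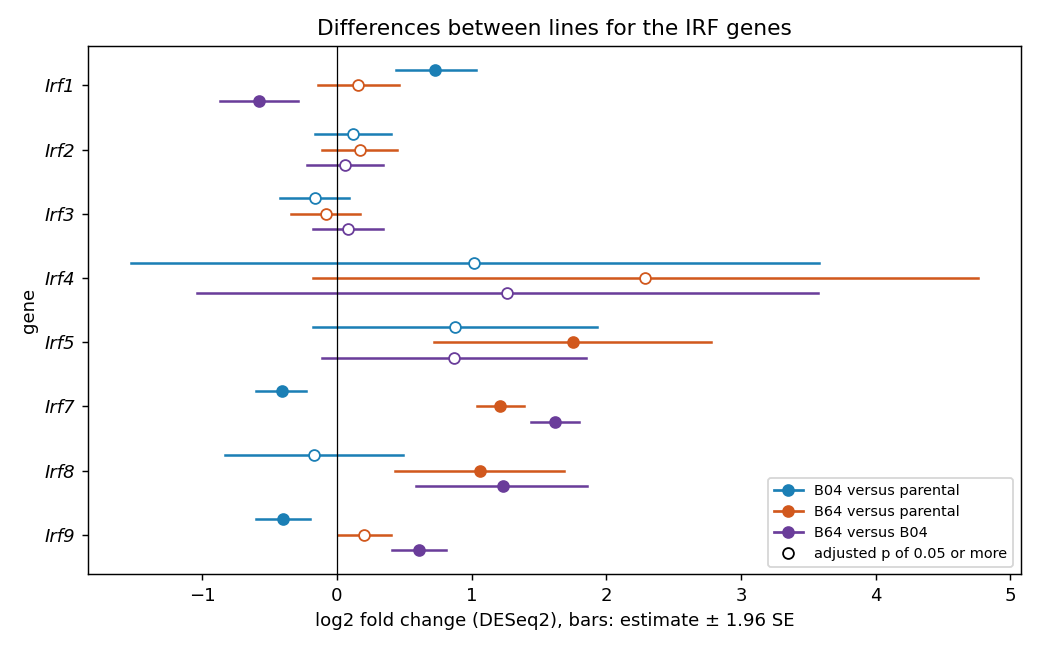
DESeq2 log2 fold changes (x axis) of the 8 genes (y axis) in the 3 comparisons, with bars for the 95% interval; filled points had an adjusted p under 0.05. Irf7 is at -0.41, 1.21 and 1.62, and the intervals of Irf4 are the widest.

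Among the factors that switch on interferon genes, Irf7, the main amplifier of the type I response, was higher in B64 and lower in B04 than in the parental line. Its normalised counts were 1194 and 1218 in the parental line, 959.5 and 853 in B04, and 2893 and 2696 in B64. The 3 lines did not overlap. Relative to the parental line, Irf7 was 2.32-fold higher in B64 (95% interval 2.05 to 2.62; log2 fold change 1.21, SE 0.09; DESeq2 adjusted p = 1.89e-38) and 1.33-fold lower in B04 (log2 -0.41, SE 0.09; DESeq2 adjusted p = 0.000139). Set against B04 directly, B64 was 3.08-fold higher (2.72 to 3.49; DESeq2 adjusted p = 4.75e-67). Over the 17 alternatives, the log2 difference stayed between 1.16 and 1.38 for B64 against the parental line and between 1.54 and 1.71 for B64 against B04, past the threshold in each. The fall in B04 missed the threshold in a fit that blocked on fragment-length class (log2 -0.33, DESeq2 adjusted p = 0.0631). In that fit the class term came from B04 A and B04 B alone, so the value rests on B04 A against the parental line. Within the shorter class alone, B04 B had 853 counts against 2893 and 2696 in B64. Within the longer class B04 A had 959.5 against 1194 and 1218 in the parental line. In bulk RNA, fewer cells that express a gene and less RNA per cell cannot be told apart.

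Irf3, the constitutively expressed relative of Irf7 that answers first to a viral signal, passed the test in none of the comparisons. Its normalised counts were 592 and 672 in the parental line, 555 and 573 in B04, and 579 and 614 in B64. The B64 libraries overlapped the parental range, B04 lay just below both, and TPM spanned only 24.44 to 25.75 over the 6 libraries. Irf3 was not called in either clone, with intervals of the log2 difference of -0.42 to 0.09 for B04 and -0.34 to 0.17 for B64 (DESeq2 adjusted p = 0.424 and 0.778). The ratio of Irf7 to Irf3 normalised counts was 2.02 and 1.81 in the parental line, 1.73 and 1.49 in B04, and 5.0 and 4.39 in B64.

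Irf5, which acts downstream of Toll-like receptors and MyD88, was scarce but higher in B64. Normalised counts were 12.4 and 20.6 in the parental line, 29.2 and 31.6 in B04, and 49.8 and 61.0 in B64. The 3 lines did not overlap. B64 was 3.36-fold above the parental line (1.64 to 6.87; log2 1.75, SE 0.53; DESeq2 adjusted p = 0.00844), while B04 against the parental line (log2 0.88, SE 0.54; DESeq2 adjusted p = 0.261) and B64 against B04 (log2 0.87, SE 0.50; DESeq2 adjusted p = 0.22) did not pass. The call in B64 was lost when single libraries were left out: the DESeq2 adjusted p was 0.242 without parental A, 0.107 without B64 A and 0.239 without B64 B, and 0.866 when fragment-length class was blocked. In that blocked fit the log2 difference was 1.64, against 1.75 without the block. Irf5 shares 411 exonic bases (14.1% of its own) with Tnpo3 on the opposite strand, and reads there cannot be told apart without strand. Tnpo3, a nuclear import receptor, had 4793 to 5547 normalised counts and was not called in either clone (log2 -0.12 in B04 and -0.15 in B64; DESeq2 adjusted p = 0.135 and 0.0918).

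Irf9, the DNA-binding subunit of ISGF3, was lower in B04 than in both other lines. Normalised counts were 1179 and 1062 in the parental line, 845.5 and 849.9 in B04, and 1300.3 and 1283 in B64. B04 lay below both other lines and B64 above them. Irf9 was 1.32-fold lower in B04 than in the parental line (log2 -0.40, SE 0.10; DESeq2 adjusted p = 0.000706) and 1.52-fold higher in B64 than in B04 (1.33 to 1.75; DESeq2 adjusted p = 5.21e-08). Its difference between B64 and the parental line did not pass (log2 0.20, 95% interval 0.01 to 0.40; DESeq2 adjusted p = 0.168). The fall in B04 was not called without parental A (DESeq2 adjusted p = 0.088) or by limma on log2(TPM + 1) and log2(TPM + 0.1) (limma adjusted p = 0.0546 and 0.0539). Irf7 and Irf9 had about equal normalised counts in the parental line and B04, at ratios of 1.15 or less, whereas the ratio was 2.22 and 2.10 in B64.

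Irf1, an interferon-gamma-induced activator, was higher in B04 than in either other line. Normalised counts were 338 and 376 in the parental line, 558 and 630.1 in B04, and 410.0 and 386 in B64. B04 stood apart, while the parental line and B64 lay close together. Irf1 was 1.66-fold higher in B04 than in the parental line (1.36 to 2.04; log2 0.73, SE 0.15; DESeq2 adjusted p = 1.17e-05) and was called under all 17 alternatives. It was not called in B64 against the parental line (log2 0.16, 95% interval -0.14 to 0.46; DESeq2 adjusted p = 0.596). Against B04, B64 was lower (log2 -0.58, SE 0.15; DESeq2 adjusted p = 0.000878), a difference that missed the threshold without B04 B (DESeq2 adjusted p = 0.0904) or without B64 B (DESeq2 adjusted p = 0.0644). Irf1 was higher in the clone where Irf7 and Irf9 were lower.

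Irf2, the antagonist of Irf1, gave different pictures as a count and as TPM. Normalised counts were 426 and 430.2 in the parental line, 456 and 473 in B04, and 459 and 507 in B64, a 1.19-fold range. None of the comparisons was called on counts, with log2 differences of 0.12 in B04 and 0.17 in B64 against the parental line (DESeq2 adjusted p = 0.653 and 0.506). TPM ranged 2.53-fold, from 9.87 in parental B to 24.98 in B64 B. RSEM averages gene length over transcripts in proportion to their estimated shares. For Irf2, with 11 listed transcripts of 324 to 3965 bases, that length was 1765 and 2430 bases in the parental line, 1678 and 1607 in B04, and 1535 and 1298 in B64. With RSEM effective length as an offset, Irf2 was higher in B64 than in the parental line (log2 0.79; DESeq2 adjusted p = 0.00624). Tested on TPM itself it was not called, at 0.78 by limma on log2(TPM + 1) (limma adjusted p = 0.0676) and 0.83 on log2(TPM + 0.1) (limma adjusted p = 0.0685). Fragment-length class moved with these lengths, since both parental libraries were in the longer class and both B64 libraries in the shorter, and its part in the result was not tested. The ratio of Irf1 to Irf2 normalised counts was above 1 only in B04, at 1.22 and 1.33, against 0.76 to 0.89 in the other 4 libraries.

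**Figure D4:**
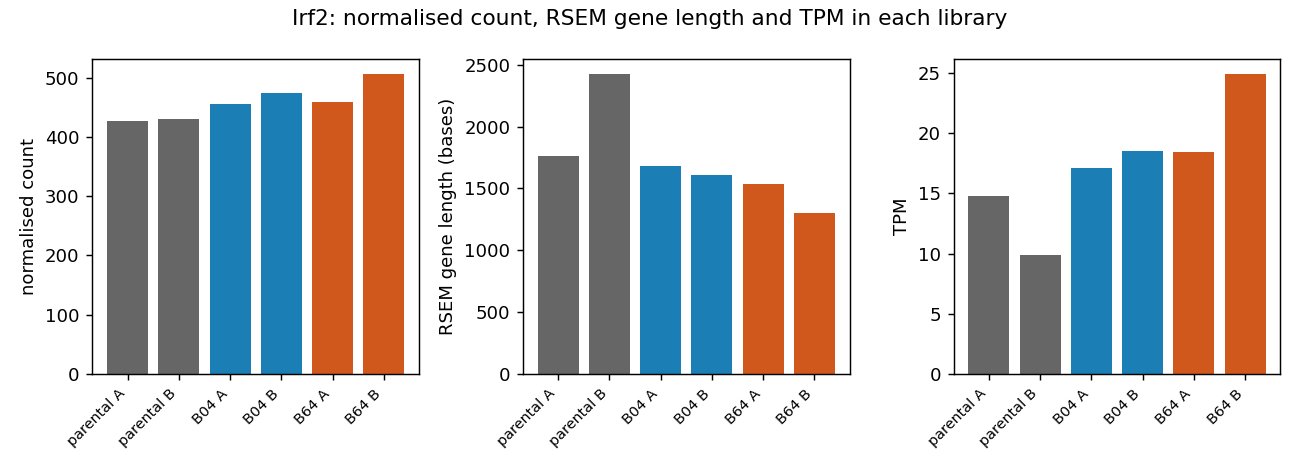
Irf2 in each library: normalised count, RSEM gene length in bases and TPM (y axes from 0; x axes, library; colours mark the 3 lines). Counts vary 1.19-fold, while length falls from 2430 bases in parental B to 1298 in B64 B and TPM rises from 9.87 to 24.98.

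Of the 2 genes best known from blood cells, Irf8, an interferon-gamma-responsive factor of myeloid and dendritic cells, was higher in B64. Normalised counts were 70.6 and 56.1 in the parental line, 55.6 and 57.0 in B04, and 129.1 and 134.6 in B64. Parental and B04 libraries overlapped and both B64 libraries lay above them. B64 was 2.08-fold above the parental line (1.35 to 3.22; log2 1.06, SE 0.32; DESeq2 adjusted p = 0.00889) and 2.34-fold above B04 (1.51 to 3.64; DESeq2 adjusted p = 0.00121). B04 did not differ from the parental line beyond its error (log2 -0.17, 95% interval -0.83 to 0.49; DESeq2 adjusted p = 0.806), and the sign of this difference turned under some alternatives. The call against the parental line was lost without any 1 of the parental or B64 libraries. The log2 difference was then 1.23 without parental A, 0.90 without parental B, 1.09 without B64 A and 1.03 without B64 B. This call was also lost when fragment-length class was blocked (log2 1.02 against 1.06 without the block, DESeq2 adjusted p = 0.886). By limma on log2(TPM + 0.1) it was lost too (log2 1.11, limma adjusted p = 0.051). The call against B04 was lost under 5 of the 17 alternatives, and the log2 difference over all 17 ranged from 0.66 to 1.26. Among the 5 were the fits without B04 A, B64 A or B64 B and the fit blocked on fragment-length class (DESeq2 adjusted p = 0.0747). In these named fits the log2 difference was 1.20 to 1.26, against 1.23 with all libraries and no block. Within the shorter class alone, Irf8 had 57.0 counts in B04 B against 129.1 and 134.6 in B64. The leukocyte marker Cd68 was also higher in B64, at 39.62 and 36.06 TPM against 10.08 to 11.99 elsewhere, and its part in the Irf8 and Irf5 differences was not tested. The defining leukocyte gene Ptprc was at 0.01 TPM or less in every library, 4 of 5 dendritic cell markers had at most 3 counts in every library, and the remaining one, Zbtb46, was at 0.99 to 1.5 TPM.

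Irf4, a factor of plasma cells and activated lymphocytes, was near the limit of detection. Expected counts were 4 and 1 in the parental line, 5 and 5 in B04, and 14 and 7 in B64. The intervals were wide: the log2 difference was 2.29 for B64 against the parental line (-0.18 to 4.76; DESeq2 adjusted p = 0.24) and 1.02 for B04 (-1.53 to 3.58; DESeq2 adjusted p = 0.669). The B lymphocyte marker Ms4a1 was at 0 TPM in every library.

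The genes that IRFs act with were then described from 6 lists, beside the share called over all genes; the median log2 difference of all genes tested was 0.00 in each comparison. All lists were chosen with earlier results of these data known, so the shares called are not independent evidence. None of the 11 interferon ligand genes listed had more than 3 counts in any library. Of these, 10 were at 0 throughout, which at a floor of 3 counts allows up to 3 per library, and Ifnb1 had 1 count in each B64 library. The receptor subunits Ifnar1, Ifnar2, Ifngr1 and Ifngr2 were not called in any comparison, with log2 differences between -0.24 and 0.24.

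Of the receptor and JAK-STAT genes, Stat2, a partner of IRF9 in ISGF3, rose in B64 against the parental line (log2 0.51, SE 0.12; DESeq2 adjusted p = 0.00038) and had a value of -0.25 in B04 that did not pass (DESeq2 adjusted p = 0.141). Its normalised counts were 751 and 651 in the parental line, 588 and 593 in B04, and 1041 and 954 in B64. Both B64 libraries lay above all others. Against B04, Stat2 (log2 0.75) and the kinase gene Jak2 (log2 0.30, named after its value was seen) were higher in B64.

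Of 18 sensors, adaptors and kinases upstream of IRF3, IRF5 and IRF7, 4 were called in B04 (2 higher, 2 lower; 22.2%) and 5 in B64 (all higher; 27.8%) against the parental line. Over all genes tested the shares were 24.1% and 16.3%, so that the share in B04 was no higher than the background. RNA sensors were among them. Ifih1 (MDA5) was lower in B04 (log2 -0.48) and higher in B64 (log2 0.69), and Dhx58 (LGP2, log2 1.16) and Ddx58 (RIG-I, log2 0.59) rose in B64. In B04 the adaptor gene Mavs rose (log2 0.24) and Tank, which links adaptors to the kinases, fell (log2 -0.32). Ikbke, which encodes a kinase of IRF3 and IRF7, was higher in both clones (log2 0.51 and 0.51), and its relative Tbk1 was not called (log2 0.10 and 0.12). Against B04, 8 of the 18 were called higher in B64 and 1 lower, Mavs (log2 -0.31), or 50% against 24.3% over all genes tested. The list medians were -0.10, 0.10 and 0.16, taken in the order B04 against parental, B64 against parental and B64 against B04. Over the alternatives the number called ranged from 0 to 7 in B04, from 2 to 7 in B64 and from 3 to 9 between the clones.

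Few partners and cofactors were called: 0% of those tested in B04, 11.1% in B64 and 12.5% in B64 against B04. The shares over all genes tested were 24.1%, 16.3% and 24.3%. Of 12 listed, 9 were tested against the parental line, and Batf2 alone was called (log2 1.0 in B64; DESeq2 adjusted p = 0.0106), although edgeR called 1 gene in B04 and 2 in B64. Against B04, 8 were tested and Irf2bp1, a corepressor of IRF2, was lower in B64 (log2 -0.33). Spi1 (PU.1), the partner of IRF4 and IRF8 in blood cells, averaged 2.36, 8.68 and 2.27 normalised counts in the parental line, B04 and B64. The list medians were 0.06, -0.06 and -0.03.

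Known targets of ISGF3 and IRF7 were called lower in B04 and higher in B64. Of the 30 listed, 13 were lower and 0 higher in B04 (43.3%), and 25 were higher and 0 lower in B64 (83.3%) against the parental line. Over all genes tested, 12.9% were called lower in B04 and 8.87% higher in B64. By edgeR, 15 were called in B04, 1 of them higher. Their median log2 difference was -0.28 in B04 and 0.70 in B64 with DESeq2. Usp18, which limits signalling at the type I receptor, had 1700 and 1663 normalised counts in the parental line, 843 and 675 in B04, and 2666 and 2283 in B64. The corresponding log2 differences were -1.15 (SE 0.11) in B04 and 0.56 (SE 0.11) in B64. The ubiquitin-like Isg15 changed by -0.67 and 0.52, and tetherin (Bst2), which holds virions at the cell surface, by -0.24 and 0.70. Oas3, a sensor of double-stranded RNA, rose in B64 alone against the parental line (log2 1.08; -0.04 in B04, not called) and was higher than in B04 (log2 1.12). Against B04, 27 of 29 were called higher in B64 (93.1%, against 13.1% higher over all genes tested), with a median of 1.04 and Ifi44 at 1.45. Blocking on fragment-length class left 8 calls in B04 and 14 in B64, while the calls over all genes went from 3181 to 1596 in B04 and from 2157 to 340 in B64. The study had already reported higher interferon-response genes in B64 from these libraries, and it named the member Ifit1. Since the list was chosen with such results known, its excess over the background is a description only.

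Targets of IRF1 were called higher in both clones. Of 16 listed, 15 were tested, of which 8 rose in B04 (53.3%) and 10 in B64 (66.7%), none fell in either, and the medians were 0.36 and 0.60. Over all genes tested, 11.2% were called higher in B04 and 8.87% in B64. Irf1 itself was called higher in B04 but was not called in B64 (log2 0.16). The immunoproteasome gene Psmb8 had 216 and 205 normalised counts in the parental line, 534 and 567 in B04, and 399.8 and 387 in B64. It was higher in both clones (log2 1.39 in B04 and 0.90 in B64) and lower in B64 than in B04 (log2 -0.48; DESeq2 adjusted p = 0.00851). The peptide transporter genes also rose, Tap2 by 0.57 and 0.26 and Tap1 by 0.36 and 0.60 in B04 and B64. Guanylate-binding protein genes and the class I transactivator Nlrc5 rose in B64 alone: Gbp7 by 1.08, Gbp3 by 1.01 and Nlrc5 by 0.62, against 0.33, -0.04 and -0.29 in B04, where none passed, and all 3 were higher in B64 than in B04 (log2 0.75, 1.05 and 0.92). Between the clones, 4 were called higher and 4 lower in B64 (median -0.08), or 53.3% against 24.3% over all genes tested. Blocking on fragment-length class left 5 calls in B04 and 3 in B64, while the calls over all genes went from 3181 to 1596 and from 2157 to 340.

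**Figure D5:**
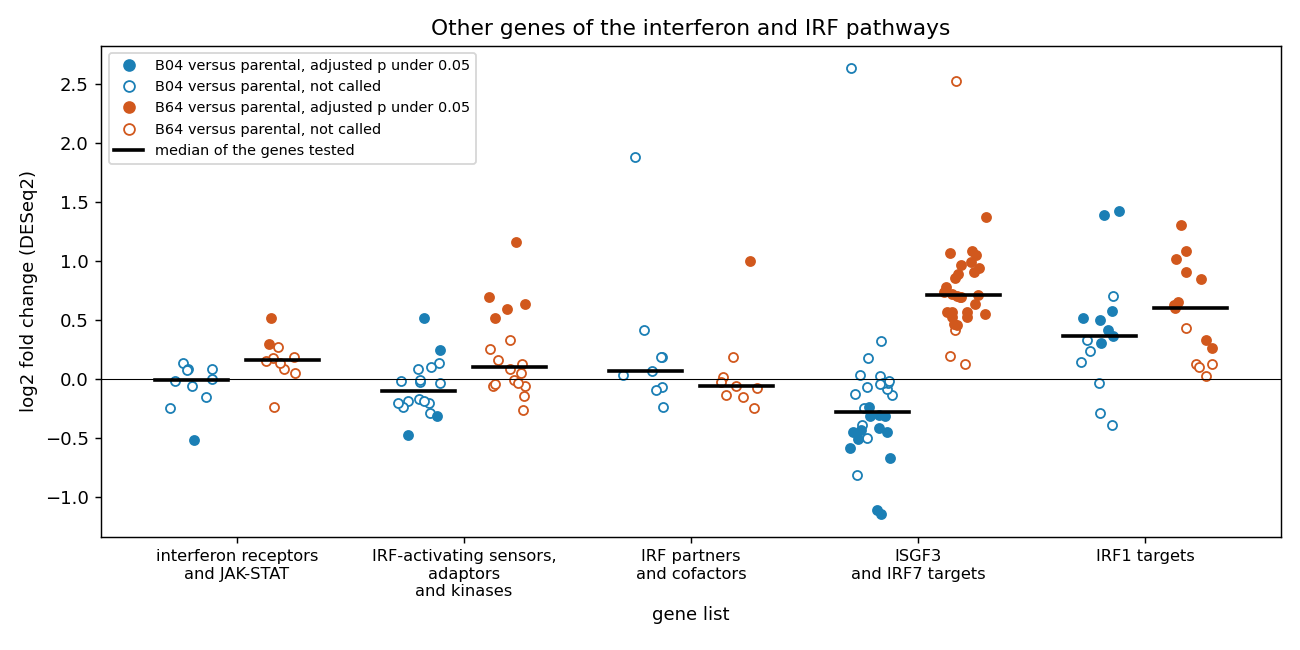
DESeq2 log2 fold change (y axis) of each tested gene of 5 lists (x axis) in B04 (blue) and B64 (orange) against the parental line; filled points had an adjusted p under 0.05 and black bars are medians. The ISGF3 and IRF7 targets sit at medians of -0.28 and 0.70 and the IRF1 targets at 0.36 and 0.60; the open points at 2.63 and 2.52 are Ifit1bl1, a gene with few counts.

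The genes whose pattern over the 6 libraries was most like that of an abundant IRF gene were named by Pearson's r of log2 normalised counts, as a description over 3 pairs of duplicates. For Irf7 they were Dhrs3 (0.9996), Bst2 (0.9981) and Fyn (0.9969). For Irf9 they included Slc12a7 (0.9979) and Tet2 (0.9929), and for Irf1 they were Gm4875 (0.9971), Tfeb (0.9947) and Abhd14b (0.9911). High values were common with so few lines: 119 of 1224 candidate genes reached 0.95 with Irf7, 92 of 1225 with Irf9 and 75 of 1224 with Irf1.

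In the mm10 assembly (GENCODE M21), Irf1 lies on chromosome 11 (53770014 to 53778374, plus strand), Irf2 and Irf8 on chromosome 8 (46739732 to 46847458 and 120736358 to 120756694, plus), and Irf3 and Irf7 on chromosome 7 (44997648 to 45002848, plus, and 141262706 to 141266481, minus). Irf4 lies on chromosome 13 (30749226 to 30766976), Irf5 on chromosome 6 (29526625 to 29541871) and Irf9 on chromosome 14 (55603571 to 55610030), all on the plus strand. Besides Irf5, 4 of the genes share exonic bases with a neighbour: Irf1 with Gm17334 (3.4% of its exonic bases), Irf3 with Bcl2l12 (2.6%), Irf9 with Rnf31 (2.3%) and Irf7 with Phrf1 (1.2%). Reads in these stretches cannot be assigned with certainty. None of Bcl2l12, Rnf31 and Phrf1 was called in any comparison, and Gm17334 had 1 or 2 counts per library.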

How the data were processed

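RNA was measured in 6 libraries, 2 for each of 3 CT26 lines, with groups and replicate letters taken from the sample titles. Per the labels and the study's methods, the authors aligned paired reads to mm10 with STAR and quantified them with RSEM. Deposited values are the expected count, RSEM's estimate after ambiguous reads are divided among genes, and TPM, scaled by the authors with RSEM for effective length and library total. The deposited FPKM values were not used. The annotation release is not given in the sources used here. Of 53801 identifiers, 53706 (99.8%) matched a symbol in GENCODE M21 (GRCm38, the assembly of mm10). Coordinates count from 1.

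Rounded expected counts were fitted in R 4.3.3 by DESeq2 1.42.0 over all genes and all 6 libraries, with the line as the only term, a Wald test, independent filtering and no shrinkage. Calls needed a Benjamini-Hochberg adjusted p under 0.05. Normalised counts are expected counts divided by DESeq2 size factors, intervals are 95% intervals of the fit, and list medians cover tested genes. Genes without an adjusted p were counted as not tested. At most 3 counts in every library was treated as the floor, which covers counting error only.

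Alternatives were edgeR's quasi-likelihood test (version 4.0.16), TMM factors, no independent filtering, a minimum of 10 counts in 2 libraries, 2 groups only, the replicate letter or the fragment-length class as a block, RSEM effective length as an offset, limma (version 3.58.1) on log2(TPM + 1) and log2(TPM + 0.1), an adjusted p under 0.01, and leaving out each library. Tests were checked on simulated data. The 8 genes and all lists were chosen with earlier results of these data known. Named list genes were, per list and comparison, at most 2 called rises and 2 called falls with the smallest adjusted p; receptors, Tbk1, Spi1 and overlapping genes were added by role. Likeness used genes with a mean normalised count of at least 100 and an SD of at least 0.3 on the log2 scale. Mb21d1 was matched as Cgas. A few genes that the rule names are not reported here. Groups of 2 were too small for an outlier test.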

Additional observations from a re-analysis of the deposited data

Results flagged for a closer look

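Of the 8 IRF genes, 4 differed between the clones when B64 and B04 were set against each other in the same fit, which tests the difference between their departures from the parental line. The B64 minus B04 log2 difference was 1.62 for Irf7, 1.23 for Irf8, 0.61 for Irf9 and -0.58 for Irf1 (DESeq2 adjusted p = 4.75e-67, 0.00121, 5.21e-08 and 0.000878). Over all genes, 24.3% were called in this comparison. The Irf8 difference missed the threshold under 5 of the 17 alternatives. Among them were the fit blocked on fragment-length class (log2 1.21, DESeq2 adjusted p = 0.0747) and those without B04 A, B64 A or B64 B (log2 1.21, 1.26 and 1.20). The Irf1 difference missed the threshold without B04 B or without B64 B.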

How the results depend on the processing

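Of 377 values of single IRF genes under the alternatives, 347 kept their direction and side of the threshold, 21 lost a call, 2 gained one and 7 changed sign. No called value changed sign. These values are not independent of the main fit or of each other. The setting of an adjusted p under 0.01 used the main fit itself. Leaving out a library of the line not compared kept all libraries of the 2 lines compared. For B04 against the parental line, the sign of Irf8 turned with the effective-length offset (0.09), limma on log2(TPM + 1) (0.09), limma on log2(TPM + 0.1) (0.15) and without parental A (0.00; -0.33 to 0.00 over single libraries left out). For B64 against the parental line, Irf1 was -0.02 when fragment-length class was blocked and Irf3 was 0.01 without parental B (-0.17 to 0.01), and for B64 against B04, Irf2 was -0.02 without B64 B (-0.02 to 0.13). The number of IRF genes called in B64 against parental was 1 in the fit blocked on fragment-length class. Only B04 had a library in each class, so the class term of that fit came from B04 A and B04 B alone. Over single libraries left out, IRF calls ranged from 2 to 3 (B04 against parental), 1 to 3 (B64 against parental) and 2 to 4 (B64 against B04). Over all genes, calls in the same order numbered 1596, 340 and 1625 in the fit blocked on fragment-length class, 1999 and 1287 with limma on log2(TPM + 1) in the 2 comparisons with the parental line, and 1986, 1242 and 2051 with limma on log2(TPM + 0.1). Over single libraries left out they ranged from 1755 to 2577, 988 to 1772 and 1696 to 2758. Fits with a library left out have fewer samples, and the lone library of a line is then assumed to vary like the others. The cause of the other changes was not tested. Same-lettered libraries deviated together with r = 0.16 (parental and B04), 0.16 (parental and B64) and -0.05 (B04 and B64) over 9878 genes. These values cannot tell whether same-lettered libraries were handled together, and the main fit did not pair them. With the replicate letter as a block, the IRF calls numbered 3, 3 and 4 and Irf7 in B64 against parental stayed at 1.21. Irf4 had at most 14 expected counts in any library, and its intervals are wide.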
